A study of Mus musculus with 18 samples.

Results

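Chst15 and 8 other enzymes that finish sugar chains were followed in J774 cells, a mouse macrophage line, after exposure to mineral particles. The set held 9 of the 23102 genes measured, 4 chondroitin sulfotransferases (Chst15, Chst11, Chst12 and Chst7) and 5 sialyltransferases (St6gal1, St3gal1, St3gal4, St3gal5 and St3gal6). Chst15 was chosen by its measured gene values, which moved in opposite directions with talc in the absence and in the presence of estradiol. The other 8 genes were listed with it. Cells kept in medium without phenol red received for 24 h, in 24 well plates, talc with estradiol, talc, titanium dioxide (TiO2) with estradiol, TiO2, estradiol, or vehicle, with particles at 10 µg per well and estradiol at 2 µg/mL. Each of the 6 groups had 3 Affymetrix arrays, 18 in all. All groups came from this 1 cell line. No label states that the 3 arrays of a group were cultured separately, so each p-value reflects the spread among these arrays, part or all of which may be technical.

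Chondroitin sulfate is a chain of alternating sugars carried by proteoglycans, and its sulfate groups set which growth factors, cytokines and lectins it can bind. Chst11 and Chst12 place the sulfate that is most common on its N-acetylgalactosamine units, Chst7 places sulfate at another position of that sugar, and Chst15 adds a further sulfate to units that Chst11 or Chst12 have already modified. Sialyltransferases cap glycans with sialic acid, an acidic sugar read by Siglec receptors and removed by sialidases. St6gal1 caps galactose on N-linked glycans in one linkage, and the St3gal enzymes make a different linkage: St3gal1 on mucin-type O-glycans, St3gal4 and St3gal6 on chains that include selectin ligands, and St3gal5 on lactosylceramide, the step that starts most gangliosides.

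A gene value is the mean log2 intensity of the probe sets that carry the symbol of that gene alone, from 3 probe sets for Chst7 to 20 for St3gal6. The array medians lay between 45.6 and 48.0 intensity units, with TiO2 plus estradiol replicate 3 the lowest. Array numbers in the labels follow the groups one after another; if arrays were handled in that sequence, handling and treatment cannot be told apart. The macrophage markers fitted the labelled line: 12 of 12 had mean gene values of 6.56 to 12.8, against 2.98 to 5.40 for the 18 measured markers of fibroblasts, epithelium, lymphocytes and granulocytes, which the probe sets cannot place at a true 0. The summed intensity of the 12 macrophage markers was 24425 to 25116 with talc plus estradiol and 23863 to 24090 with estradiol, and 23998 to 24885 with talc and 23329 to 24276 with vehicle. The summed intensity of the other 18 markers was 323 to 334 with talc plus estradiol and 339 to 373 with estradiol, and 339 to 365 with talc and 346 to 358 with vehicle. Their part in the results was not tested. In these bulk RNA samples, fewer cells with a transcript and less of it per cell cannot be told apart.

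**Figure D1:**
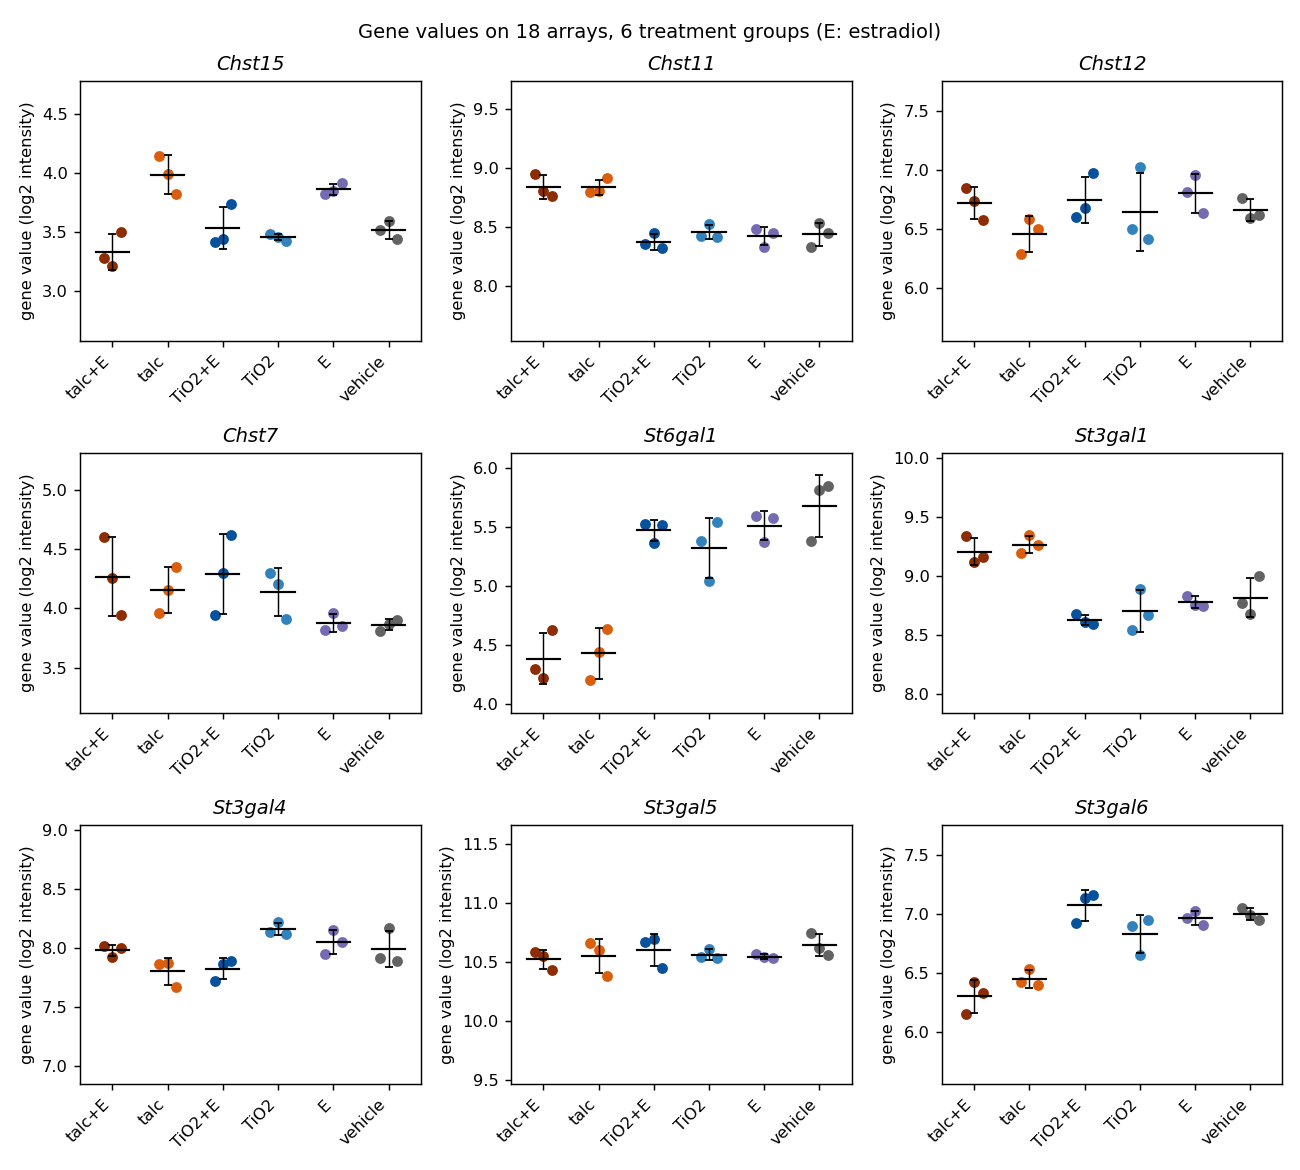
Gene values (log2 intensity, vertical axes of equal span) of the 9 genes on each of 18 arrays, by group; points are arrays, bars the mean and SD of 3. With talc, in both arms, St6gal1 and St3gal6 lay below and Chst11 and St3gal1 above all other groups, while Chst15 was highest with talc alone (3.99) and lowest with talc plus estradiol (3.33).

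The main comparisons asked what talc did to these genes in cells given vehicle and in cells given estradiol. Among the 8 genes other than Chst15, St6gal1 and St3gal6 fell and Chst11 and St3gal1 rose, in both arms, by limma at an adjusted p under 0.05 over all genes. Of the 8 genes, 2 rose and 2 fell with talc against vehicle, where 8.46% of all 23102 genes passed, 3.94% rising and 4.52% falling. With talc plus estradiol against estradiol again 2 rose and 2 fell, where 7.13% of all genes passed, 4.13% rising and 3% falling. The median log2 change of the 8 genes was -0.14 with talc and -0.05 with talc plus estradiol, beside 0.02 and -0.0037 over all genes.

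St6gal1 had the deepest fall among the 9 genes. Its gene values were 4.20, 4.44 and 4.64 with talc, against 5.37, 5.81 and 5.85 with vehicle. They were 4.30, 4.22 and 4.63 with talc plus estradiol, against 5.59, 5.37 and 5.57 with estradiol. Every array with talc lay below every array without it, TiO2 included. The log2 change was -1.25 ± 0.16 with talc (SE, n = 3 each, limma adjusted p = 9.53e-05), which is 2.38-fold lower. It was -1.13 ± 0.16 with talc plus estradiol (SE, n = 3 each, limma adjusted p = 0.000342), 2.18-fold lower. The means with talc (4.43) and talc plus estradiol (4.38) lay inside the range of the markers of other cell types, so a level above background was not shown there and the folds rest on it. All 14 probe sets of St6gal1 were lower in both comparisons, by between -2.29 and -0.03 with talc and between -2.42 and -0.24 with talc plus estradiol.

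Promoter windows ran from 250 bases before to 50 bases after an annotated start in RefSeq (GRCm38.p6). They were matched for 8 of the 9 genes, all but St3gal1, with 12 windows between them. They were searched on both strands for the AP-1 motif TGANTCA, the cAMP response element TGACGTCA, the PU.1-type ETS core GAGGAA, the NF-kB motif and the palindromic estrogen response element. These letters stand in 7.81%, 1.79%, 28.3%, 1.63% and 0.0700% of all 32851 such windows. St6gal1 has 3 annotated starts, and 1 of its windows held an AP-1 match, shown in capitals because it is the gene with the largest change. The window lies on the plus strand at chr16:23290220-23290519.
St6gal1 promoter: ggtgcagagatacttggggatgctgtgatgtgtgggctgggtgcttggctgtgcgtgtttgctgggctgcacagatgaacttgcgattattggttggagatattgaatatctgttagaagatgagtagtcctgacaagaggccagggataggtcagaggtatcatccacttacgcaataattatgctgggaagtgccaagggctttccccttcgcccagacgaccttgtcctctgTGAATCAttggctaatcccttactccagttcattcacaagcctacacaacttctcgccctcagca
The match is a description of these letters and not a mapped site. The windows of Chst11 and of St3gal6 held none of the 5 motifs.

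St3gal6 had gene values of 6.42, 6.53 and 6.39 with talc, against 7.05, 6.99 and 6.95 with vehicle. In the estradiol arm they were 6.15, 6.42 and 6.33 with talc plus estradiol, against 6.97, 7.03 and 6.90 with estradiol. The arrays with talc were the lower ones in both arms, without overlap. The log2 change was -0.55 ± 0.11 with talc (SE, n = 3 each, limma adjusted p = 0.00328). It was -0.67 ± 0.11 with talc plus estradiol (SE, n = 3 each, limma adjusted p = 0.000940). Of its 20 probe sets 18 were lower with talc and 19 with talc plus estradiol. With the median in place of the mean of the probe sets, the log2 changes were -0.45 (limma adjusted p = 0.177) and -0.63 (limma adjusted p = 0.0564).

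St3gal1, the sialyltransferase of O-glycans, went up. Its gene values were 9.19, 9.34 and 9.26 with talc, against 8.77, 8.68 and 8.999 with vehicle. They were 9.34, 9.12 and 9.15 with talc plus estradiol, against 8.83, 8.75 and 8.74 with estradiol. All 6 arrays with talc lay above the 12 others. The log2 change was 0.45 ± 0.11 with talc (SE, n = 3 each, limma adjusted p = 0.0162) and 0.43 ± 0.11 with talc plus estradiol (SE, n = 3 each, limma adjusted p = 0.0245). All 12 probe sets were higher with talc and 11 with talc plus estradiol.

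St3gal4 and St3gal5, also sialyltransferases, did not pass in either arm. St3gal4 averaged 7.80 ± 0.11 with talc and 7.99 ± 0.15 with vehicle, and 7.98 ± 0.05 with talc plus estradiol and 8.05 ± 0.10 with estradiol (SD, n = 3). The 95% intervals of its log2 changes ran between -0.40 and 0.03 with talc and between -0.29 and 0.14 with talc plus estradiol. St3gal5, which makes the ganglioside precursor, stayed between 10.39 and 10.74 on all 18 arrays. Its log2 change was -0.09 with talc (95% interval -0.30 to 0.12) and -0.02 with talc plus estradiol (95% interval -0.24 to 0.19).

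Among the sulfotransferases, Chst11 rose with talc. It had gene values of 8.80, 8.81 and 8.92 with talc, against 8.34, 8.54 and 8.45 with vehicle. With talc plus estradiol it had 8.96, 8.81 and 8.77, against 8.48, 8.34 and 8.45 with estradiol. Again all 6 arrays with talc lay above the 12 others. The log2 change was 0.40 ± 0.09 with talc (SE, n = 3 each, limma adjusted p = 0.0110) and 0.42 ± 0.09 with talc plus estradiol (SE, n = 3 each, limma adjusted p = 0.00996). All 5 probe sets of Chst11 were higher in both comparisons. Chst12, which acts on the same sugar, averaged 6.46 ± 0.15 with talc and 6.66 ± 0.09 with vehicle, and 6.72 ± 0.14 with talc plus estradiol and 6.81 ± 0.16 with estradiol (SD, n = 3). It did not pass (limma adjusted p = 0.537 and 0.849). Chst7 averaged 4.16 ± 0.19 with talc and 3.86 ± 0.05 with vehicle, and 4.27 ± 0.33 with talc plus estradiol and 3.88 ± 0.07 with estradiol (SD, n = 3), and did not pass either (limma adjusted p = 0.400 and 0.226). Its log2 changes were 0.29 (95% interval -0.08 to 0.66) and 0.39 (95% interval 0.02 to 0.76). The Chst7 means lay inside the range of the markers of other cell types, so a level above background was not shown.

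The calls of Chst11 and St3gal1 in these comparisons depended on single arrays, and those of St6gal1 and St3gal6 did not. With talc against vehicle, Chst11 no longer passed without talc replicate 3 or vehicle replicate 1 (limma adjusted p = 0.0600 and 0.0572), and St3gal1 without talc replicate 2 or 3 or vehicle replicate 1 or 2 (0.0523 to 0.0858). In the estradiol arm, Chst11 no longer passed without talc plus estradiol replicate 1 or estradiol replicate 2 (0.0560 and 0.0549), and St3gal1 without talc plus estradiol replicate 1 or 3 or any of the 3 estradiol arrays (0.0519 to 0.115). In a fit of only the 6 arrays compared neither gene passed in either arm (limma adjusted p = 0.0648 to 0.0731). The brightest probe set ended these calls too, for Chst11 (0.0659 with talc and 0.221 with talc plus estradiol) and for St3gal1 (0.0523 and 0.110). The median of probe sets ended those of St3gal1 with talc (0.0684) and of Chst11 with talc plus estradiol (0.28, limma adjusted p = 0.368).

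**Figure D2:**
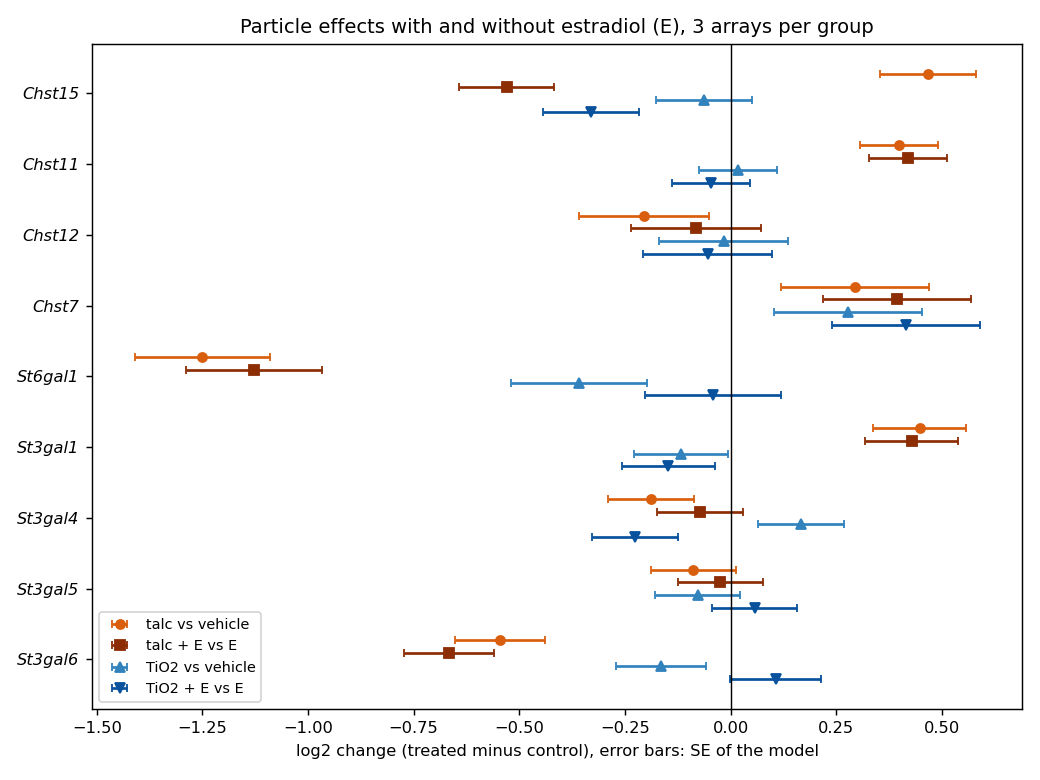
Log2 change (horizontal axis) of each gene for talc and TiO2 against their controls without and with estradiol; points are differences between means of 3 arrays, bars the SE of the model. St6gal1 has -1.25 and -1.13 with talc in the vehicle and estradiol arms, and Chst15 alone has talc points far on both sides of 0 (0.47 and -0.53).

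Whether estradiol altered the talc effect was tested as an interaction in the same model. None of the 8 genes other than Chst15 passed, where 0% of all genes did. At an unadjusted p under 0.05 there were 0 of the 8, where 6.32% of all genes had one. Their talc effects with estradiol minus those without lay between -0.12 and 0.12 on the log2 scale (limma adjusted p from 0.933 to 0.994). For St6gal1 the difference was 0.12 with a 95% interval of -0.36 to 0.60, and for St3gal6 -0.12 with an interval of -0.44 to 0.20. Estradiol alone against vehicle gave log2 changes of -0.17 to 0.14 in these 8 genes, and talc plus estradiol against talc -0.15 to 0.27. None of the 8 genes passed in either by limma, where 0% of all genes did. None had an unadjusted p under 0.05, where 4.87% and 6.58% of all genes had one.

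Chst15 was the gene with opposite directions, and its values are given as a description, because the arrays of talc, talc plus estradiol, estradiol and vehicle are those that chose it. It had 4.15, 3.99 and 3.82 with talc, against 3.52, 3.60 and 3.44 with vehicle. It had 3.28, 3.21 and 3.50 with talc plus estradiol, against 3.82, 3.84 and 3.91 with estradiol. The talc arrays were all above the vehicle arrays, and the talc plus estradiol arrays were all below the estradiol arrays. The log2 difference was 0.47 ± 0.11 in the vehicle arm and -0.53 ± 0.11 in the estradiol arm (SE, n = 3 each), and the second minus the first was -0.998 ± 0.160. Those differences share arrays with estradiol against vehicle (0.34 ± 0.11) and with talc plus estradiol against talc (-0.66 ± 0.11), which are other readings of the same 12 arrays.

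By group mean the order of Chst15 was talc (3.99 ± 0.16), estradiol (3.86 ± 0.05), TiO2 plus estradiol (3.53 ± 0.18), vehicle (3.52 ± 0.08), TiO2 (3.46 ± 0.03) and talc plus estradiol (3.33 ± 0.15; SD, n = 3). Between neighbours in that order, the arrays of estradiol and TiO2 plus estradiol did not overlap, and those of every other pair of neighbours did. TiO2 plus estradiol replicate 3 had 3.74, against 3.41 and 3.44 on the other 2 arrays of its group. A test is possible on TiO2 plus estradiol against TiO2, whose arrays did not choose the gene. There the log2 change was 0.07 ± 0.11, with a 95% interval of -0.17 to 0.31 (SE, n = 3 each, limma adjusted p = 0.810). Of all genes 0.00866% passed in that comparison.

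The intensity of Chst15 was low. Its mean over 18 arrays, 3.61, stood at percentile 23.8 of all gene values and inside the range of 2.98 to 5.40 of the markers of other cell types. Its 10 probe sets had means of 2.50 to 4.28. They did not move together: 4 were higher with talc and lower with talc plus estradiol, 2 were the other way round, 2 were higher in both and 2 lower in both. The single probe sets gave -0.36 to 1.49 with talc and -1.87 to 0.54 with talc plus estradiol. The median Pearson correlation between pairs of its probe sets over the 18 arrays was 0.08 (45 pairs), beside 0.31 in St6gal1 (91 pairs), 0.31 in St3gal6 (190 pairs), 0.55 in Chst11 (10 pairs) and 0.65 in St3gal1 (66 pairs), which share a change with talc. In the genes without such a call it was 0.05 in Chst12 (6 pairs), 0.05 in Chst7 (3 pairs), 0.15 in St3gal5 (36 pairs) and 0.20 in St3gal4 (66 pairs). Low values were thus also seen among genes without such a call, while the genes that share a change with talc all lay above Chst15.

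**Figure D3:**
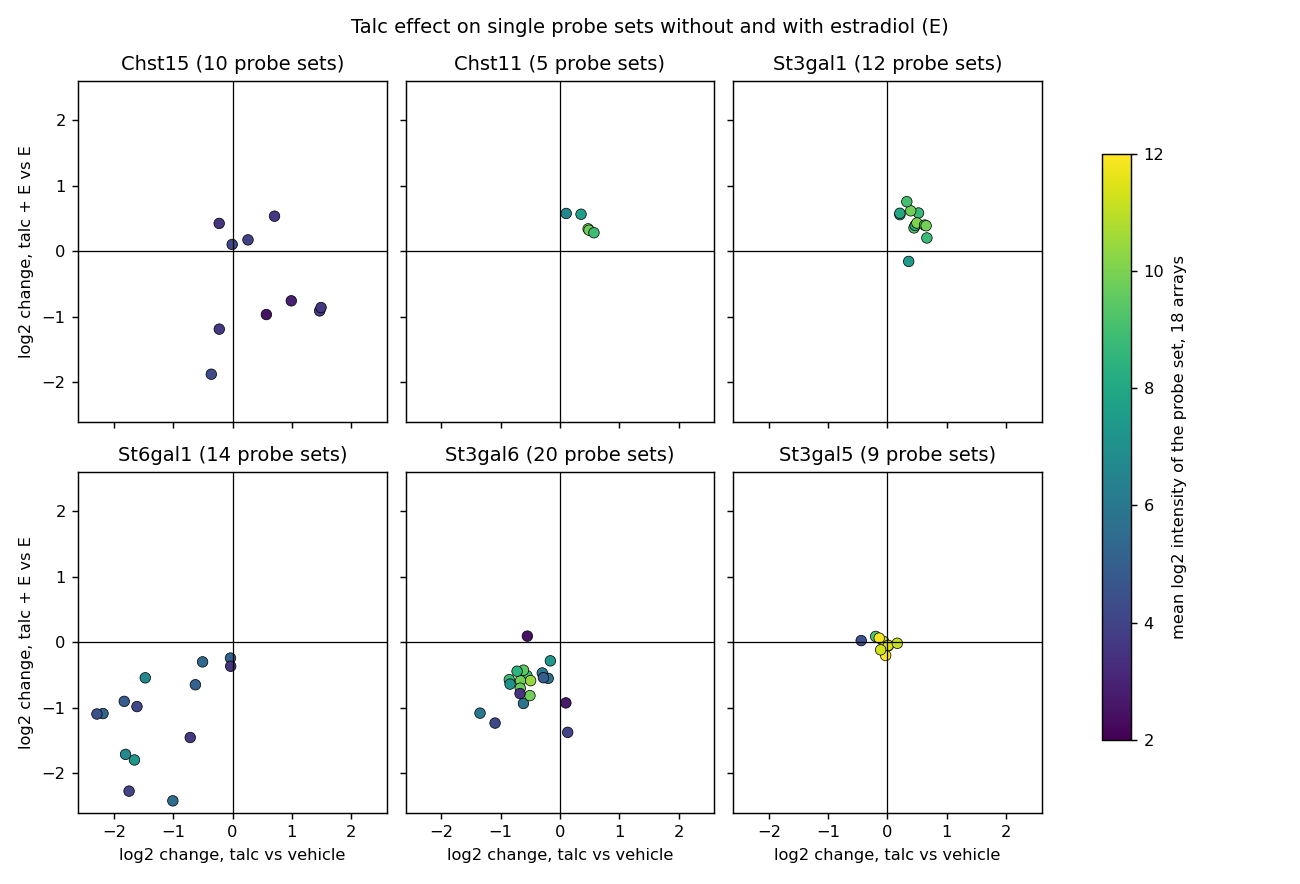
Log2 change of single probe sets with talc against vehicle (horizontal) and with talc plus estradiol against estradiol (vertical), coloured by mean log2 intensity over 18 arrays. The 14 probe sets of St6gal1 lie in the lower left, those of Chst11 in the upper right, and the 10 dim probe sets of Chst15 are found in all 4 quadrants.

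Leaving out any 1 probe set of Chst15 gave log2 differences of 0.35 to 0.56 with talc and -0.65 to -0.38 with talc plus estradiol, an alternative chosen after seeing the data. Its brightest probe set alone gave -0.36 with talc, the opposite sign, and -1.87 with talc plus estradiol. A further 3 probe sets carry the symbols of both Chst15 and the predicted gene Gm10584, and enter no gene value. With them the differences were 0.28 and -0.38, also chosen after seeing the data.

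Among all genes, 1064 passed in both talc comparisons, and 1 of these, Chst15, had opposite signs. The choice used the larger of the 2 adjusted p-values of a gene in limma. It was 0.0144 for Chst15, which says how the gene was chosen and is no test of it. The genes nearest outside the threshold of 0.05 were Gm1966 (log2 changes -0.39 with talc and 0.44 with talc plus estradiol, larger adjusted p = 0.0717 in limma), B020014A21Rik (0.55 and -0.50, 0.0944) and Nphs1os (0.38 and -0.40, 0.0960). They were dim as well, with mean gene values of 3.35, 3.75 and 3.88.

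The 5 genes most like Chst15 over the 18 arrays, out of 10732 named genes above the median level, were Tigd5 (Pearson r = 0.69), Cdkn2a, an inhibitor of the cell cycle (0.68), Dapk2, a death-associated kinase (0.68), Bnip5 (0.68) and Tmem216 (0.67). The means of Tigd5 (5.12), Cdkn2a (4.91), Dapk2 (4.93) and Bnip5 (5.10) lay inside the range of the markers of other cell types. A level above background was not shown for them. The genes most unlike Chst15 were Rbck1 (-0.77), Ppib (-0.70), Stxbp2 (-0.70), Entpd4 (-0.69) and Abr (-0.69). The 8 genes listed with Chst15 had r between -0.23 (Chst7) and 0.16 (St3gal1). These correlations are descriptions over arrays that share the 6 treatments.

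Chst15 has 2 annotated starts, with overlapping promoter windows on the minus strand. The window with a motif match is shown, for the gene the set was built around, with the PU.1-type core in capitals, read on the strand opposite to the gene. It lies at chr7:132316977-132317276 (GRCm38.p6, RefSeq).
Chst15 promoter: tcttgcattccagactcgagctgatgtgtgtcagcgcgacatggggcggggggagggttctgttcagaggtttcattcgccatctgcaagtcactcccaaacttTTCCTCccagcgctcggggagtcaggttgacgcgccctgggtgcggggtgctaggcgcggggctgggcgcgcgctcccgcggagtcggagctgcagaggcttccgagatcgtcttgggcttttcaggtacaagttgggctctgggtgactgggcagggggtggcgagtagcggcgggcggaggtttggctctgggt
The other Chst15 window held none of the 5 motifs. The window of St3gal4 held a PU.1-type core as well, and so did 28.3% of all windows. No window of the 8 matched genes, Chst15 among them, held the estrogen response element, and St3gal1 had no window to search.

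TiO2, given at the same mass per well, was the particle control. None of the 8 genes passed with TiO2 against vehicle, where 0% of all genes did, or with TiO2 plus estradiol against estradiol, where 0.00433% did. At an unadjusted p under 0.05 limma found 1 and 2 of the 8, where 8.16% and 8.91% of all genes had one. St6gal1 had 5.38, 5.04 and 5.54 with TiO2, against 5.37, 5.81 and 5.85 with vehicle, a log2 difference of -0.36 ± 0.16 (SE, n = 3 each, limma adjusted p = 0.587). It had 5.52, 5.36 and 5.52 with TiO2 plus estradiol, against 5.59, 5.37 and 5.57 with estradiol, and these arrays overlapped. Chst15 averaged 3.46 ± 0.03 with TiO2 and 3.52 ± 0.08 with vehicle, and 3.53 ± 0.18 with TiO2 plus estradiol and 3.86 ± 0.05 with estradiol (SD, n = 3).

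Talc was also set directly against TiO2. Without estradiol, 2 of the 8 genes were higher with talc (Chst11 and St3gal1) and 3 lower (St6gal1, St3gal6 and St3gal4), where 9.96% of all genes passed, 4.61% higher and 5.35% lower. With estradiol, the same 2 genes were higher and St6gal1 and St3gal6 lower, where 9.53% of all genes passed, 6.66% higher and 2.87% lower. These comparisons share their talc arrays with those above. St6gal1 had a log2 change of -0.89 ± 0.16 with talc against TiO2 (limma adjusted p = 0.00168) and of -1.09 ± 0.16 with talc plus estradiol against TiO2 plus estradiol (limma adjusted p = 0.000561), and the first was lost with its brightest probe set (-0.74, limma adjusted p = 0.123). St3gal4 had 7.86, 7.88 and 7.67 with talc, against 8.14, 8.22 and 8.12 with TiO2, a log2 change of -0.35 ± 0.10 (SE, n = 3 each, limma adjusted p = 0.0351). The call of St3gal4 was lost without any one of these 6 arrays (limma adjusted p = 0.0535 to 0.159). Without estradiol that of St3gal6 (-0.38, limma adjusted p = 0.0307) was lost without TiO2 replicate 1 or 3 or talc replicate 1 or 3 (0.0920 to 0.114), and that of Chst11 (0.38, limma adjusted p = 0.0137) without talc replicate 3 (0.0693). With the brightest probe set Chst11 had 0.21 (limma adjusted p = 0.462), and with the median of probe sets St3gal6 had -0.23 (0.533). With talc plus estradiol against TiO2 plus estradiol, St3gal1 (0.58) had 0.35 with the brightest probe set (limma adjusted p = 0.170).

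In St3gal4, TiO2 had the highest group mean (8.16 ± 0.05) and talc (7.80 ± 0.11) and TiO2 plus estradiol (7.83 ± 0.09) the lowest (SD, n = 3). TiO2 plus estradiol had 7.72, 7.86 and 7.90, against 8.14, 8.22 and 8.12 with TiO2, and did not pass (log2 change -0.33 ± 0.10, limma adjusted p = 0.228). For Chst12 and Chst7 the arrays of every pair of neighbours in the order of group means overlapped, as they did for St3gal5. In Chst11, St3gal1, St6gal1 and St3gal6 the 1 gap between neighbours without overlap set the 2 talc groups apart from the other 4. The share of all genes with such a gap is not given here.

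The remaining genes of these pathways were described with 11 lists that held 137 measured genes. The shares over all genes given above (3.94% rising and 4.52% falling with talc, 4.13% and 3% with talc plus estradiol) are the background for each count of passing genes. For counts at an unadjusted p under 0.05 in limma, the background is 19.8% of all genes with talc and 19.1% with talc plus estradiol. In the synthesis of chondroitin and dermatan sulfate, 3 of 19 genes rose and 1 fell with talc, and 2 rose with talc plus estradiol against estradiol. Chpf, a subunit of the chondroitin polymerase, had 6.61, 6.65 and 6.74 with talc, against 5.41, 5.54 and 5.64 with vehicle, a log2 change of 1.13 ± 0.11 (SE, n = 3 each, limma adjusted p = 8.65e-06). It had 6.81, 6.60 and 6.70 with talc plus estradiol, against 5.56, 5.81 and 5.50 with estradiol, a log2 change of 1.08 ± 0.11 (SE, n = 3 each, limma adjusted p = 2.30e-05). Ust, which sulfates the uronic acid of the same chains, changed by 0.74 ± 0.10 and 0.82 ± 0.10 (limma adjusted p = 0.000229 and 0.000155). The glucuronyltransferase of the linkage region B3gat3 (0.36) rose and the epimerase Dse (-0.32) fell with talc against vehicle, and both calls were lost when single talc or vehicle arrays were left out (limma adjusted p = 0.0525 to 0.133). In the supply of activated sulfate, 0 of 9 genes rose and 2 fell with talc, and 1 rose and 1 fell with talc plus estradiol. Papss1, which makes the sulfate donor, fell by 0.43 with talc and by 0.59 with talc plus estradiol on the log2 scale (limma adjusted p = 0.0135 and 0.00201). Its call with talc was lost without talc replicate 3 or vehicle replicate 2 (0.0866 and 0.0694), and both Papss1 calls with the brightest probe set (0.0822 and 0.0716). Without talc replicate 3 or vehicle replicate 2 the 2 falls of this list with talc became 0, since the sulfate transporter Slc26a11 no longer passed either (0.120 and 0.0554). The rise of Bpnt1, a phosphatase of the spent sulfate donor, was lost without any talc plus estradiol array or estradiol replicate 1 or 2 (0.0701 to 0.130). None of the 11 other carbohydrate sulfotransferases passed in either arm by limma, and 0 had an unadjusted p under 0.05.

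Genes that break down glycosaminoglycans in lysosomes fell in 7 of 15 measured cases and rose in 1 with talc, with a list median of -0.20 beside 0.02 over all genes. With talc plus estradiol 2 fell and 1 rose, with a median of -0.19 beside -0.0037. Without talc replicate 3 the 7 falls became 2, Sgsh and Arsb, and the rise 0: Ids, Gusb, Hexa, Naglu and Glb1 no longer passed (limma adjusted p = 0.0523 to 0.122). Without vehicle replicate 3 there were 4 falls. With the brightest or the median probe set, or in a fit of the compared arrays, there were 3 falls and 0 rises. Sgsh, a heparan sulfatase, had 8.15, 8.34 and 8.29 with talc, against 9.35, 9.34 and 9.42 with vehicle, a log2 change of -1.11 ± 0.14 (SE, n = 3 each, limma adjusted p = 9.66e-05). Arsb, a sulfatase that acts on chondroitin and dermatan, had 9.58, 9.66 and 9.40 with talc, against 10.37, 10.35 and 10.42 with vehicle. Its log2 change was -0.84 ± 0.10 (SE, n = 3 each, limma adjusted p = 6.47e-05). In the estradiol arm Sgsh changed by -0.82 ± 0.14 and Arsb by -0.72 ± 0.10 (limma adjusted p = 0.00184 and 0.000361). The hyaluronidase Hyal2 rose in both arms, by 0.43 and 0.54, but with the median of its probe sets passed in neither (limma adjusted p = 0.238 and 0.444), and the first was lost without talc replicate 3 or vehicle replicate 1 (0.0502 and 0.0627).

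**Figure D4:**
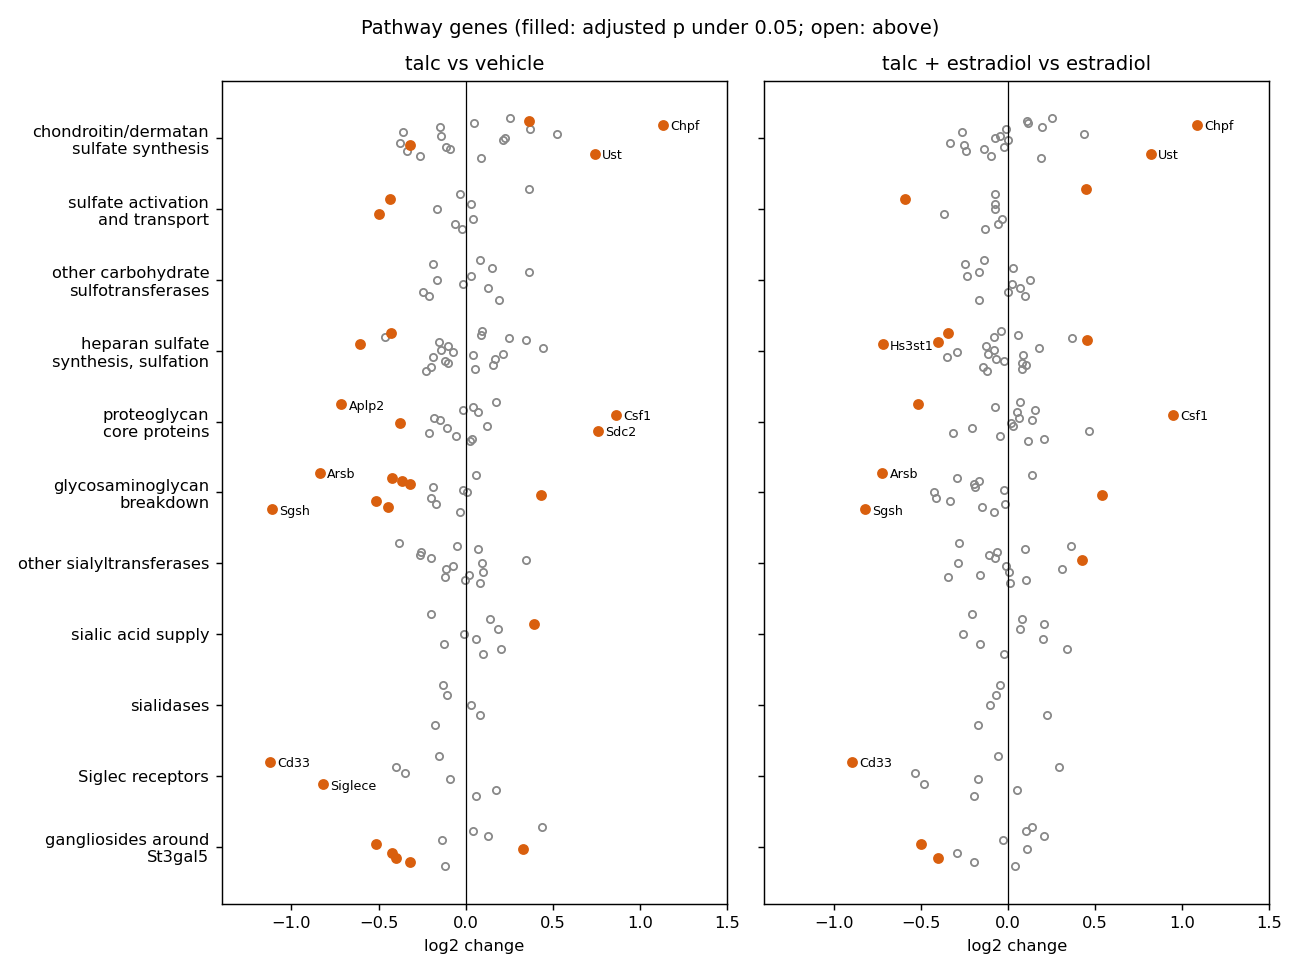
Log2 changes (horizontal axes) of the measured genes of 11 pathway lists with talc against vehicle (left) and with talc plus estradiol against estradiol (right); filled points passed at an adjusted p under 0.05 in limma, and names mark passing genes past 0.7. Chpf, Csf1 and Ust lie far right and Sgsh, Arsb and Cd33 far left in both panels, while no sialidase is filled.

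On the sialic acid side, none of the other 15 sialyltransferases passed with talc by limma. At an unadjusted p under 0.05 there were 2 of these 15, beside 19.8% of all genes. With talc plus estradiol 1 of them rose, St6galnac4 (0.42, limma adjusted p = 0.0375). Of the 9 genes that supply sialic acid, 1 rose with talc, the activating enzyme Cmas (0.39, limma adjusted p = 0.0427), and none passed with talc plus estradiol (1 at an unadjusted p under 0.05). The St6galnac4 call was lost without talc plus estradiol replicate 1 or 3 or any estradiol array (limma adjusted p = 0.0549 to 0.151), and the Cmas call without any talc or vehicle array (0.0736 to 0.159). None of the 5 genes of the sialidase list passed in either arm, and 0 had an unadjusted p under 0.05. Of the 8 measured Siglecs, receptors for sialic acid, 2 fell with talc and 1 with talc plus estradiol, and 0 rose. Cd33 had 9.82, 9.79 and 9.64 with talc, against 10.81, 10.90 and 10.91 with vehicle, a log2 change of -1.12 ± 0.13 (SE, n = 3 each, limma adjusted p = 3.18e-05). It changed by -0.90 ± 0.13 with talc plus estradiol (limma adjusted p = 0.000317). The Cd33 mean was also lower with TiO2 (10.50) than with vehicle (10.87), and with TiO2 plus estradiol (10.50) than with estradiol (10.80). Talc against TiO2 passed for Cd33 without and with estradiol (-0.75 and -0.59, limma adjusted p = 0.00102 and 0.00670). Siglece changed by -0.82 ± 0.18 with talc (limma adjusted p = 0.00734), which was lost without talc replicate 3 (0.0507). The Siglece mean with talc (4.86) lay inside the range of the markers of other cell types, so a level above background was not shown there. Around St3gal5 in ganglioside metabolism, 4 of 10 genes fell and 1 rose with talc, and 2 fell with talc plus estradiol. Hexa and Glb1, counted among these 4, are also among the 7 lysosomal genes. Without talc replicate 3 the 4 falls became 2 and the rise, of Gla, 0, and without vehicle replicate 2 there was 1 fall, of B4galt6. With talc plus estradiol 1 fall was left without replicate 2 or 3 of either group. B4galt6, which makes the lactosylceramide that St3gal5 uses, changed by -0.52 ± 0.10 and -0.50 ± 0.10 (limma adjusted p = 0.00317 and 0.00533), and neither passed with its brightest probe set (0.146 and 0.0690). The B4galt6 mean was also lower with TiO2 (9.52) than with vehicle (9.75), and with TiO2 plus estradiol (9.41) than with estradiol (9.69). Talc against TiO2 did not pass for B4galt6 without or with estradiol (-0.28 and -0.22, limma adjusted p = 0.0904 and 0.203). B4galt5, on the same list, did not pass with talc in either arm (-0.14 and -0.03).

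In heparan sulfate synthesis 0 of 22 genes rose and 2 fell with talc, and 1 rose and 3 fell with talc plus estradiol. Without estradiol replicate 2, or without talc plus estradiol replicate 2 or 3, or in a fit of the compared arrays, the 4 calls of the estradiol arm became 0. With the median of probe sets the 2 falls with talc became 0. The heparan sulfotransferase Hs3st1 changed by -0.61 ± 0.18 and -0.72 ± 0.18 (limma adjusted p = 0.0441 and 0.0200). With the median of its probe sets the first of these was -0.15 (limma adjusted p = 0.773), and it was lost without any talc array or vehicle replicate 2 or 3 (0.0590 to 0.211). In the estradiol arm the Hs3st1 call was lost without talc plus estradiol replicate 2 or 3 or estradiol replicate 2 (0.0902 to 0.111). The Hs3st1 means with talc (4.71), vehicle (5.32) and talc plus estradiol (4.81) lay inside the range of the markers of other cell types. A level above background was not shown for them. Among 16 proteoglycan core proteins 2 rose and 2 fell with talc, and 1 rose and 1 fell with talc plus estradiol. Csf1 rose in both arms, by 0.86 ± 0.14 and 0.94 ± 0.14 (SE, n = 3 each, limma adjusted p = 0.000947 and 0.000628). Both Csf1 calls were kept when any single array was left out. Sdc2, a syndecan, changed by 0.76 ± 0.14 with talc (limma adjusted p = 0.00189), which was lost with its brightest probe set (0.552), and Aplp2, which can carry chondroitin sulfate, by -0.71 ± 0.10 and -0.52 ± 0.10 (limma adjusted p = 0.000179 and 0.00350). The other fall with talc, of the glypican Gpc1, was lost without, among others, talc replicate 1 or 3 or vehicle replicate 1 or 2 (limma adjusted p = 0.132 to 0.154). With the brightest probe set of Aplp2 the values were -0.17 and -0.41, and neither passed.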

How the data were processed

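The deposited table holds an intensity on a linear scale for 269751 probe sets on 18 arrays, from 1.458 to 17256. RMA was used by the authors, per the submitters' processing notes. Its version, the level of summary and the step back from the log2 scale are not given in the sources used here. Log2 of the intensity was taken before any other step. The array platform's gene annotation, with 2247 symbols updated through RefSeq synonyms, gave 233753 probe sets with 1 symbol for 23102 genes. Probe sets with several symbols (5106) or none (30892) entered no gene value, and no gene was filtered out. A single limma model (3.58.1, R 4.3.3) with 6 group means covered every gene and array (12 residual and 4.57 prior degrees of freedom). Tests were two-sided, and p-values were adjusted by Benjamini-Hochberg over all genes of a contrast. The fit was tested on simulated data. For arrays, their number limits the precision: the median SE was 0.151 log2 units for 3 arrays against 3.

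The genes and lists were chosen with earlier results of these data known. Named were the 9 genes, passing pathway genes (up to 4 per list), and the genes most like Chst15 by Pearson correlation. Alternatives were the brightest or median probe set per gene, quantile normalization, subtracted array medians, a filter on dim genes, an intensity trend with robust variance, a fit to the compared arrays alone, and dropping single arrays in turn. Background correction could not be varied on these processed values. Figures were drawn with matplotlib 3.10.9.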

Additional observations from a re-analysis of the deposited data

Results flagged for a closer look

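The talc effect on Chst15 differed in direction between the arms: every talc array was above every vehicle array, and every talc plus estradiol array was below every estradiol array. The effect with estradiol minus that without was -0.998 on the log2 scale. Since these arrays chose the gene, the difference was not tested here, and 0 of all genes passed in that interaction. The gene lay at the dim end of the scale, and 4 of its 10 probe sets showed the pattern. Their part in the difference was not tested.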

How the results depend on the processing

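The 17 calls of the 8 genes other than Chst15 kept their direction in 425 recalculations and passed in 376 of them. The 43 calls of pathway genes kept theirs in 1075 and passed in 891. The number of these 8 genes that passed was 4 with talc against vehicle, 4 with talc plus estradiol against estradiol, 5 with talc against TiO2 and 4 with talc plus estradiol against TiO2 plus estradiol. With the brightest probe set per gene the first 3 of these counts were 2, 2 and 2. With the median of probe sets all 4 were 2, 2, 3 and 2. In a fit of only the arrays compared the first 3 were 2, 2 and 2. Leaving out single arrays gave 2 to 4, 2 to 4, 2 to 5 and 4 to 4, with the lowest values without talc replicate 3 or vehicle replicate 1, without talc plus estradiol replicate 1 or estradiol replicate 2, and without talc replicate 3; the third was 3 without talc replicate 1 or TiO2 replicate 1 or 3. The cause was not tested. Leaving out single probe sets of Chst15, adding those it shares with Gm10584, and recounting the pathway lists were chosen after seeing the data. In the other 7 contrasts 0 passed under every alternative.

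Chst15 with talc turned sign with its brightest probe set (-0.36) and in single probe sets (-0.00603, -0.23, -0.22 and -0.36), and with talc plus estradiol in single probe sets (0.18, 0.11, 0.43 and 0.54). Its change with TiO2 plus estradiol against TiO2 was -0.0228 after quantile normalization, and leaving out single arrays gave -0.0282 (without TiO2 plus estradiol replicate 3) to 0.133. That of St3gal5 with talc plus estradiol was 0.0241 with array medians subtracted, and leaving out single arrays gave -0.0567 to 0.0196, the upper bound without talc plus estradiol replicate 3. The cause was not tested. No paired analysis was possible because the labels give no pairing of arrays between groups.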
